A study of Mus musculus with 5 samples.

Results

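Collagen genes of all types were examined in Cxcl12-GFPhigh tdTomato+ stromal cells of the mouse femur. Members were the protein-coding genes whose mouse symbol has the form Col, digits, a, digits. The annotation holds 44 such genes, of which 43 were analysed among 17087 protein-coding genes and 30046 features in all; *Col4a6* was not analysed here. They were grouped into 8 fibrillar collagens, 7 cartilage collagens, 8 basement membrane collagens, 6 FACITs (fibril-associated collagens with interrupted triple helices) and 14 collagens of other types. The type IX genes, themselves of the FACIT type, were placed with the cartilage collagens.

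A collagen molecule is a triple helix of chains, which are either copies of 1 gene product or a fixed mix of several, so the balance between chain genes of the same type matters for what a cell can assemble. Fibrillar collagens form the load-bearing fibrils of bone, skin and marrow stroma, and most cartilage collagens belong to the thinner fibrils around chondrocytes. Basement membrane collagens form sheets under endothelial and epithelial cells. FACITs sit on the surface of fibrils, and the other types include the beaded filaments of type VI, the networks of type VIII and collagens that span the cell membrane. Procollagen chains are hydroxylated and folded in the endoplasmic reticulum, trimmed outside the cell and crosslinked by lysyl oxidases.

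The study asked how marrow stromal cells that descend from fetal perichondrium differ from those that descend from fetal chondrocytes. Dlx5CE-E12.5 cells came from Cxcl12(GFP/+); Dlx5(CreER/+); R26R(tdTomato/+) mice (3 libraries), and Fgfr3CE-E12.5 cells from mice that carried Fgfr3-iCreER with the same Cxcl12-GFP and tdTomato alleles (2 libraries). All mice received tamoxifen at embryonic day 12.5 and were used at postnatal day 21, when GFPhigh tdTomato+ cells were sorted from dissociated femurs whose distal growth plates had been taken off. Every mouse thus had 1 functional copy of *Cxcl12*, cells of littermates were pooled by genotype, and the creER drivers mark whichever cells use the Dlx5 or *Fgfr3* regulatory sequences at the pulse, Fgfr3-iCreER being an artificial chromosome transgene. According to the study's methods the lineages were also sequenced on different instruments with different read lengths, whereas the labels name the same instrument for all, so lineage and sequencing cannot be told apart.

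Total counts were 32563758, 22035650 and 27135553 in Dlx5CE-E12.5 replicates 1, 2 and 3, and 56355203 and 58166285 in Fgfr3CE-E12.5 replicates 2 and 3. Levels are given as CPM, the counts per 1000000 counts of the genes tested in a library, after TMM normalization, a scaling that makes libraries comparable, and library values follow that order. Only the filters on low counts used CPM over the total count, with no TMM factor. A fold change is Fgfr3CE-E12.5 over Dlx5CE-E12.5 on the log2 scale with its standard error (SE), and p-values are from the quasi-likelihood test of edgeR, adjusted by the Benjamini-Hochberg method over all genes tested. A gene was called when its adjusted p was under 0.05 and its level differed by more than 2-fold in either direction.

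The label of the cells was checked against 9 markers of Cxcl12-abundant reticular (CAR) stromal cells, of which none was at 0 in any library. The summed level of these markers was 31100, 32400 and 31200 CPM in Dlx5CE-E12.5 cells and 12800 and 8610 CPM in Fgfr3CE-E12.5 cells, and *Cxcl12*, the chemokine that retains blood stem cells in marrow, was the most abundant of them. It made up most of the sum, and the list was not uniform. Of the 9, 6 were called higher in Dlx5CE-E12.5 cells, beside 13.1% of all genes tested, and 2 were not called. *Foxc1*, a transcription factor of CAR cells, was called higher in Fgfr3CE-E12.5 cells at 2.82 (edgeR adjusted p = 0.000134), beside 16.4%. Lists of other cell types also differed between the libraries. All 8 pan-leukocyte markers and all 9 neutrophil markers were called higher in Fgfr3CE-E12.5 cells, beside 16.4% of all genes tested. The neutrophil sum was 2730, 3280 and 2630 CPM against 7370 and 18200 CPM, with *Ngp*, a granule protein, the most abundant. Erythroid markers ran the other way in part, with a sum of 37800, 18500 and 24400 CPM against 14300 and 21200 CPM, *Hbb-bs*, a beta globin, the most abundant, and 2 of 7 tested called higher in Dlx5CE-E12.5 cells, beside 13.1% of all genes tested. The 13 chondrocyte markers summed to 217, 233 and 220 CPM against 917 and 222 CPM, so the Fgfr3CE-E12.5 libraries stood apart from each other by 4.12 times. *Fgfr3* was the most abundant by the mean over libraries, though not in each library. *Sox9* and *Fgfr3* made up most of the sum except in Fgfr3CE-E12.5 replicate 2. The sum hides that all markers but *Sox9* and *Prg4* lay higher in both Fgfr3CE-E12.5 libraries than in any other. *Cnmd*, for example, was at 0, 0.0991 and 0 CPM against 104.5 and 9.55 CPM. The tendon and periosteal fibroblast markers summed to 235, 305 and 249 CPM against 432 and 362 CPM, with *Postn* the most abundant. Of 3 tested, *Fmod* was called higher in Fgfr3CE-E12.5 cells (1.75), beside 16.4% of all genes tested, and 1 was not called. *Mkx* was called higher in Dlx5CE-E12.5 cells (-1.35), beside 13.1%. Of 6 macrophage markers tested, 5 were called higher in Fgfr3CE-E12.5 cells, beside 16.4% of all genes tested. The part of these cells in the collagen results was not tested. In such bulk samples, fewer cells of a type and less RNA per cell cannot be told apart.

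Of the 43 collagen genes, 25 passed the filter, which required 10 CPM or more in 2 or more libraries. Among them, 9 were called higher in Fgfr3CE-E12.5 cells, beside 16.4% of the 10088 genes tested, and 5 were called higher in Dlx5CE-E12.5 cells, beside 13.1%. With either Fgfr3CE-E12.5 library left out, fewer collagen genes were called higher in Fgfr3CE-E12.5 cells, and so were fewer of all genes tested. Calls higher in Dlx5CE-E12.5 cells fell without Fgfr3CE-E12.5 replicate 3, among collagen genes and among all genes tested. The 4 called cartilage collagens failed the filter with either Fgfr3CE-E12.5 library left out. Another 4 had an adjusted p under 0.05 with a smaller change, and 7 did not pass. Libraries of the lineages did not overlap for 20 of the 25, or 80.0%, beside 68.9% of all genes tested. The median log2 fold change was 0.11 over the 25 collagen genes and 0.01 over all genes tested, and the former was 0.38 without Fgfr3CE-E12.5 replicate 2 and -0.10 without replicate 3. The counts are not support for a difference of collagens as a group, since 4 genes passed the filter only through Fgfr3CE-E12.5 libraries (*Col2a1*, *Col9a2*, *Col9a3* and *Col11a2*) and 3 only through Dlx5CE-E12.5 libraries (*Col14a1*, *Col6a5* and *Col26a1*). Such genes had to differ, so their p-values are no support for a difference and their levels are a description. With a lower filter of 1 CPM or more in 2 or more libraries, 33 collagen genes were tested. Here 13 were called higher in Fgfr3CE-E12.5 cells, beside 16.6% of 13225 genes, and 6 higher in Dlx5CE-E12.5 cells, beside 12.9%. The same limit holds, since 3 of the 33 passed only through Fgfr3CE-E12.5 libraries (*Col9a1*, *Col9a3* and *Col24a1*) and 2 only through Dlx5CE-E12.5 libraries (*Col14a1* and *Col6a6*). The remaining 10 failed both filters.

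**Figure D1:**
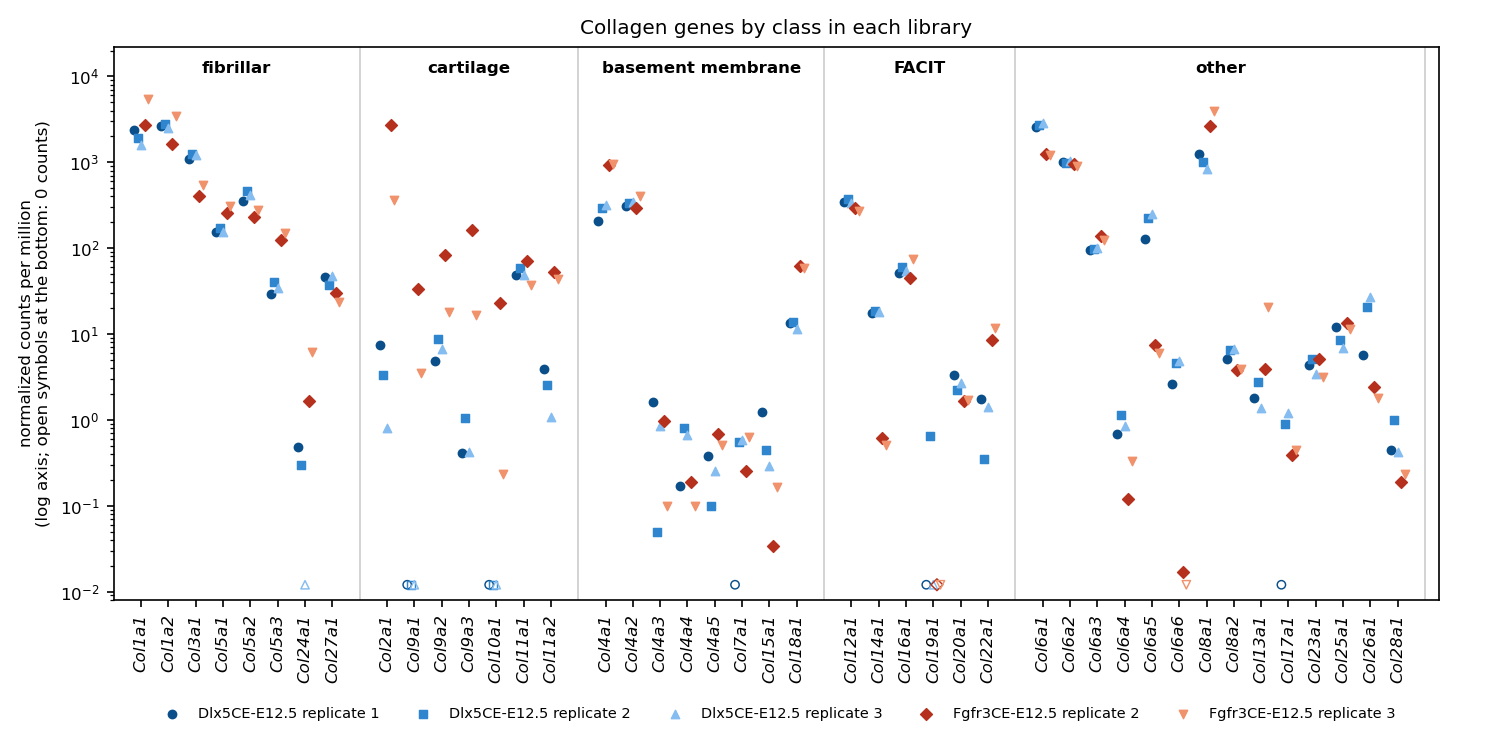
Normalized CPM of each of the 43 collagen genes on a log axis, with 1 symbol per library and genes ordered by class; open symbols at the bottom mark 0 counts. The Fgfr3CE-E12.5 libraries lie far apart for *Col2a1*, *Col9a1*, *Col9a3* and *Col10a1*, and close together for *Col4a1*, *Col18a1* and *Col6a1*.

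Collagen transcripts together made up 1.22%, 1.25% and 1.15% of protein-coding counts in Dlx5CE-E12.5 cells and 1.64% and 2.00% in Fgfr3CE-E12.5 cells. Both Fgfr3CE-E12.5 libraries thus lay above all 3 others, and the classes were not alike in this. Fibrillar collagens took 0.581% in Fgfr3CE-E12.5 replicate 2, within the 0.559% to 0.644% of Dlx5CE-E12.5 cells, and 1.09% in replicate 3. Cartilage collagens took 0.339% in replicate 2 and 0.0512% in replicate 3, against at most 0.00719% in Dlx5CE-E12.5 cells. Basement membrane collagens were at 0.139% and 0.153% against at most 0.0637%, and here the 2 Fgfr3CE-E12.5 libraries were alike. No test was made of these shares.

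**Figure D2:**
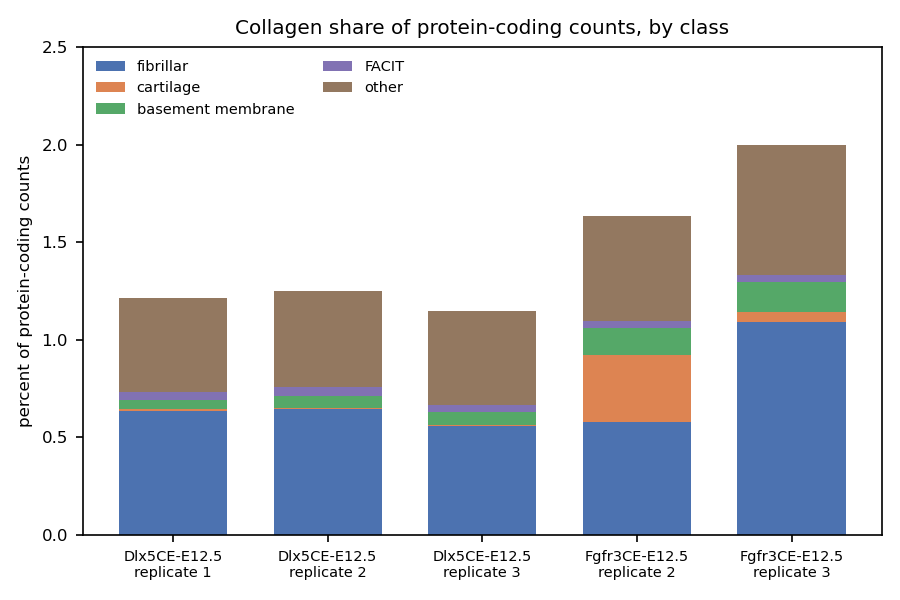
Percent of protein-coding counts taken by collagen genes in each library, stacked by class. Fgfr3CE-E12.5 replicate 2 has the largest cartilage segment at 0.339%, and replicate 3 the largest fibrillar segment at 1.09%.

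Per kilobase of exon, which allows genes to be compared, *Col6a1* was the highest collagen gene in Dlx5CE-E12.5 cells at a mean of 624.4 CPM, followed by *Col1a1* at 298 CPM and *Col1a2* at 213.5 CPM. In Fgfr3CE-E12.5 cells the means began with *Col1a1* at 624.1 CPM per kilobase, then *Col8a1* at 419.6 and *Col6a1* at 281.4. *Col2a1* was at 295.8 CPM per kilobase in replicate 2, above *Col6a1* at 282.1, and at 39.03 in replicate 3. The order depended on the length used. With the longest coding transcript, *Col1a2* stood at 496.0 CPM per kilobase in Dlx5CE-E12.5 cells and passed *Col1a1* at 329.8, and in Fgfr3CE-E12.5 cells *Col1a2* (473.6) and *Col2a1* (303.2) passed *Col6a1* (300.6). The annotated exons of *Col1a2* span 12426 bases and that transcript 5348.

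Type I collagen, the main protein of bone matrix, is built from *Col1a1* and *Col1a2* chains. *Col1a1* was at 2364, 1903 and 1600 CPM in Dlx5CE-E12.5 cells and at 2739 and 5454 CPM in Fgfr3CE-E12.5 cells. Its libraries did not overlap, but the Fgfr3CE-E12.5 libraries differed by about as much as the lineages. The log2 fold change was 1.07 (SE 0.31, edgeR adjusted p = 0.0278), and without Fgfr3CE-E12.5 replicate 3 it was 0.55 and not called. It was also not called without Dlx5CE-E12.5 replicate 2 (1.05) or 3 (0.93), or with a trend on GC content removed (0.80). *Col1a2* was at 2676, 2758 and 2524 CPM against 1631 and 3434 CPM, so Fgfr3CE-E12.5 replicates 2 and 3 lay on either side of all Dlx5CE-E12.5 libraries. Its log2 fold change of -0.07 (SE 0.30) did not pass (edgeR adjusted p = 0.872), but without Fgfr3CE-E12.5 replicate 3 it was -0.64 with an adjusted p under 0.05. The ratio of *Col1a1* to *Col1a2* per kilobase was 1.67, 1.31 and 1.20 against 3.18 and 3.01, and within Fgfr3CE-E12.5 cells it varied less than either gene. Of 12 osteoblast and osteocyte markers, listed because bone-forming cells are rich in type I collagen, 11 were found, none at 0 in all libraries of a lineage. They summed to 4700, 3440 and 3350 CPM against 10600 and 11100 CPM. *Spp1* was the most abundant by the mean over libraries, at 1307, 847.7 and 751.2 CPM against 5549 and 6260 CPM. *Ibsp* was the most abundant in each Dlx5CE-E12.5 library, at 2267, 1199 and 1406 CPM against 1782 and 1984 CPM, and was not called. Of 9 tested, 4 were called higher in Fgfr3CE-E12.5 cells, beside 16.4% of all genes tested, and 4 were not called. *Phex*, an endopeptidase of osteocytes, was called lower at -2.23 (edgeR adjusted p = 0.00415), beside 13.1%. Their part in the result was not tested.

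The other fibrillar collagens moved in opposite directions. *Col3a1*, the chain of the type III collagen that forms reticular fibres, was at 1092, 1243 and 1214 CPM against 405.1 and 545.4 CPM. All Dlx5CE-E12.5 libraries lay above both others, with a log2 fold change of -1.32 (SE 0.19, edgeR adjusted p = 0.00159). *Col1a1* to *Col3a1* per kilobase went from 3.24, 2.29 and 1.97 to 10.1 and 15.0. Type V collagen starts fibrils and limits their width, and its 3 genes did not move together. *Col5a3* was at 29.3, 40.7 and 33.9 CPM against 122.7 and 151.9 CPM, so the lineages were well apart, with a log2 fold change of 1.99 (SE 0.18, edgeR adjusted p = 0.000261). *Col5a1* and *Col5a2* stayed under the 2-fold threshold in opposite directions, at 0.82 (edgeR adjusted p = 0.00364) and -0.70 (edgeR adjusted p = 0.0145); without Fgfr3CE-E12.5 replicate 2, *Col5a1* was called at 1.03. The adjusted p of *Col5a2* was not under 0.05 without Dlx5CE-E12.5 replicate 2 (-0.61) or Fgfr3CE-E12.5 replicate 2 (-0.51), or with a length trend removed (-0.43). *Col5a1* to *Col5a2* per kilobase was 0.490, 0.416 and 0.417 against 1.24 and 1.27, so the lineages did not overlap and each varied little. *Col3a1* and *Col5a2*, both lower in Fgfr3CE-E12.5 cells, lie tail to tail on chromosome 1 with 24.6 kb between them.

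The remaining fibrillar genes were weakly expressed. *Col27a1*, a fibrillar collagen of cartilage, ranged from 23.3 to 47.6 CPM over the 5 libraries and had a log2 fold change of -0.72 (edgeR adjusted p = 0.0187), under the threshold. Its adjusted p was not under 0.05 without Dlx5CE-E12.5 replicate 3 (-0.66) or Fgfr3CE-E12.5 replicate 3 (-0.50), or with a length trend removed (-0.22). *Col24a1*, a minor collagen of developing bone, had 14, 6 and 0 counts against 98 and 376 counts. Under the lower filter it was called at 3.87 (SE 1.06, edgeR adjusted p = 0.0232) but not without Dlx5CE-E12.5 replicate 2 (3.95), and without replicate 1 it was 4.77. It passed that filter only through Fgfr3CE-E12.5 libraries, so it had to differ, and it failed it with 1 of them left out.

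**Figure D3:**
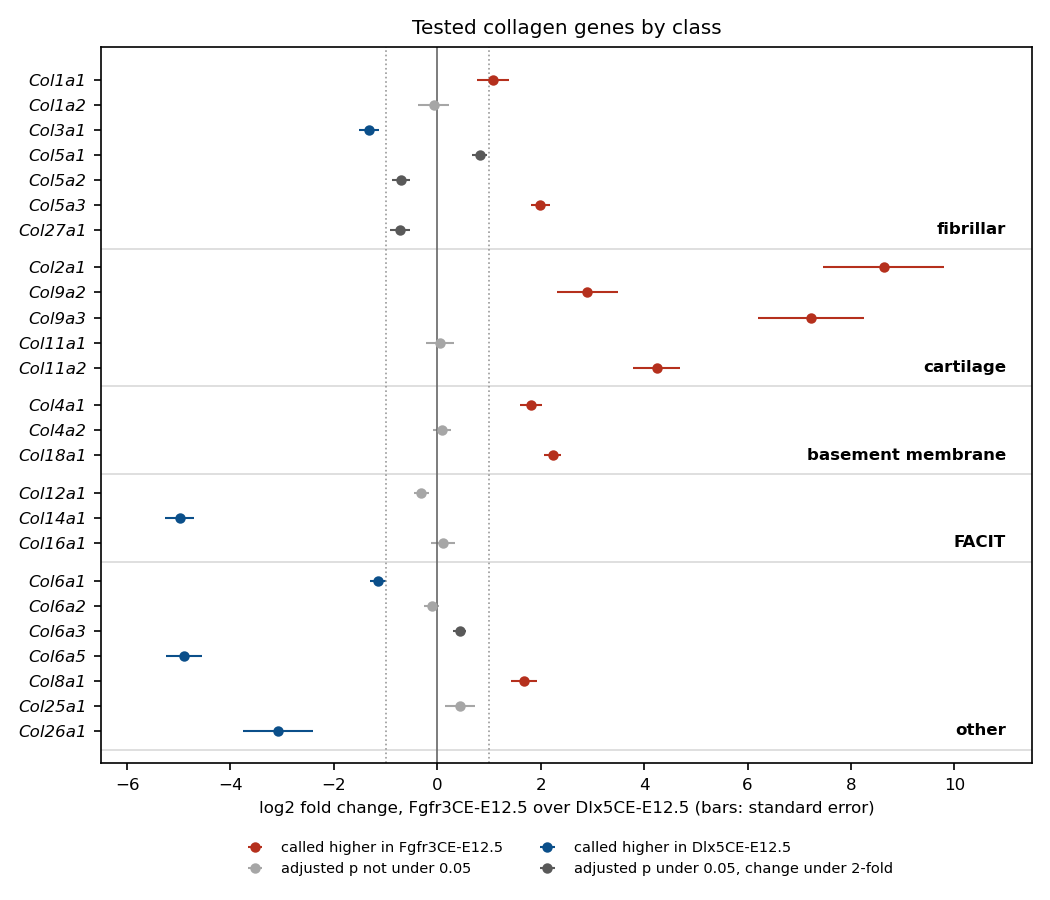
Log2 fold change of the 25 tested collagen genes by class, with bars for the standard error and dotted lines at -1 and 1. Cartilage collagens reach 8.63 with wide bars, while *Col14a1* and *Col6a5* lie near -5 with narrow ones.

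Cartilage collagens held the largest fold changes among the 25 tested genes, with a wide spread between the Fgfr3CE-E12.5 libraries. *Col2a1*, the main fibril collagen of cartilage, was at 7.38, 3.32 and 0.795 CPM in Dlx5CE-E12.5 cells and at 2734 and 360.7 CPM in Fgfr3CE-E12.5 cells. Both Fgfr3CE-E12.5 libraries were far above the rest, yet replicate 2 exceeded replicate 3 by 7.58 times. *Col2a1* passed the filter of 10 CPM only through Fgfr3CE-E12.5 libraries and so had to differ. The log2 fold change was 8.63 (SE 1.17, edgeR adjusted p = 0.00122). Under the lower filter it was 6.52 without replicate 2 and 9.45 without replicate 3, both called, and 9.56 without Dlx5CE-E12.5 replicate 1. Of the type IX chains, which decorate type II fibrils, *Col9a3* was at 0.412, 1.04 and 0.419 CPM against 164.1 and 16.6 CPM. Its log2 fold change was 7.23 (SE 1.03, edgeR adjusted p = 0.00153), and 6.1% of its exon bases are shared with another gene. It passed either filter only through Fgfr3CE-E12.5 libraries and so had to differ, and with 1 of them left out it passed neither. *Col9a2* also passed the filter of 10 CPM only through Fgfr3CE-E12.5 libraries and so had to differ. It was at 4.91, 8.72 and 6.74 CPM against 83.1 and 18.2 CPM, with a log2 fold change of 2.90 (SE 0.59, edgeR adjusted p = 0.00648). Under the lower filter this was 1.43 without Fgfr3CE-E12.5 replicate 2 and 3.62 without replicate 3, both called.

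The other genes of this class are given with their counts. *Col9a1* had 0 counts in all 3 Dlx5CE-E12.5 libraries and 1978 and 214 counts in Fgfr3CE-E12.5 cells. Against a floor of 3 counts per Dlx5CE-E12.5 library it was at least 149-fold higher, and at least 28.3-fold in replicate 3 alone. It passed the lower filter only through Fgfr3CE-E12.5 libraries, so its call there was fixed by the filter, and it failed it with 1 of them left out. *Col10a1*, the collagen of hypertrophic chondrocytes, had 0 counts in Dlx5CE-E12.5 cells and 1350 and 14 counts in Fgfr3CE-E12.5 replicates 2 and 3. It failed both filters, and its level was at least 92.7-fold higher on average but only at least 1.85-fold higher in replicate 3. The type XI chains, which lie inside cartilage fibrils, parted: *Col11a2* was at 3.95, 2.58 and 1.09 CPM against 53.0 and 44.0 CPM, with replicates 2 and 3 alike. Its log2 fold change was 4.24 (SE 0.45, edgeR adjusted p = 0.000469). *Col11a2* passed the filter of 10 CPM only through Fgfr3CE-E12.5 libraries and so had to differ. *Col11a1*, at 48.4, 58.2 and 48.2 CPM, was present in Dlx5CE-E12.5 cells, where it was the highest cartilage collagen per kilobase. It was at 70.2 and 36.8 CPM in Fgfr3CE-E12.5 cells, on either side of the Dlx5CE-E12.5 libraries (log2 fold change 0.05, SE 0.27, edgeR adjusted p = 0.888).

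Many chondrocyte markers were also far higher in Fgfr3CE-E12.5 replicate 2 than in replicate 3. *Acan*, the large proteoglycan of cartilage, was at 46.8 CPM in Fgfr3CE-E12.5 replicate 2 and 1.56 CPM in replicate 3. *Matn1*, a cartilage matrix protein, was at 26.3 and 1.41 CPM in them and at 0 in every Dlx5CE-E12.5 library, as was *Ucma*. Other markers of the list were present in every library, such as *Sox9*, a transcription factor also found in marrow stromal cells, at 130.6, 122.7 and 128.8 CPM against 101.9 and 56.5 CPM, and *Fgfr3* itself, at 79.5, 103.6 and 84.0 CPM against 156.6 and 128.9 CPM. The part of chondrocytes in the cartilage collagen values was not tested.

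**Figure D4:**
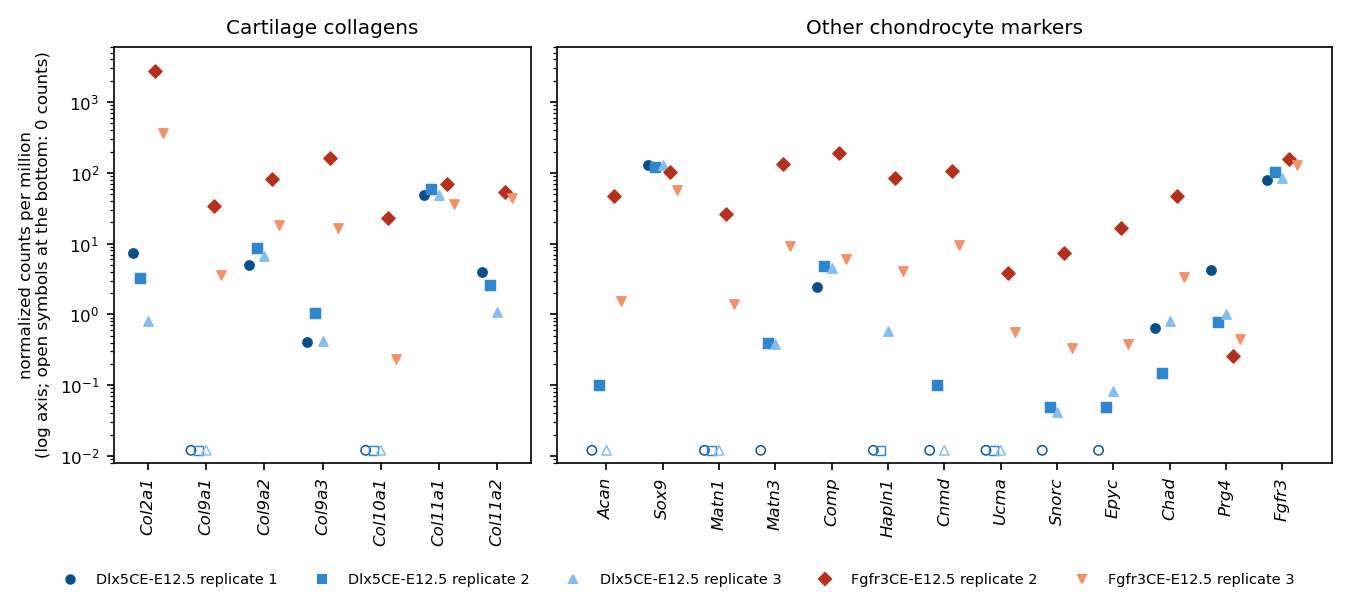
Normalized CPM of the 7 cartilage collagens and 13 other chondrocyte markers in each library, on a log axis with open symbols for 0 counts. Fgfr3CE-E12.5 replicate 2 is above replicate 3 for all 7 collagens, from 1.21 times for *Col11a2* to 99.3 times for *Col10a1*.

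Upstream sequences of *Col9a1* and *Col11a2* are shown as examples of genes low or at 0 in Dlx5CE-E12.5 cells and higher in both Fgfr3CE-E12.5 libraries. RefSeq promoters on GRCm38.p6 were found for 34 of the 43 genes, 37 promoters in all. Short motifs were searched on both strands in the 250 bases before each start in 32851 promoters. The TATA-type letters TATAAA occurred in 12.4% of them, the box letters CCAAT in 33.8% and the GC-box letters GGGCGG in 32.7%. The SOX-type letters ACAATG occurred in 10.7%, and the variant ACAAAG in 16.5%. Capitals mark matches. The *Col9a1* stretch, at chr1:24177360-24177609 on the plus strand, holds none of these letters. It lies before the RefSeq start at the annotated start, and *Col9a1* has 2 RefSeq promoters, of which the other is not shown. The *Col11a2* stretch, at chr17:34038888-34039137 on the plus strand, holds TATAAA and 2 copies of GGGCGG on the opposite strand. The RefSeq start of *Col11a2* lies 299 bases from the annotated one.
Col9a1: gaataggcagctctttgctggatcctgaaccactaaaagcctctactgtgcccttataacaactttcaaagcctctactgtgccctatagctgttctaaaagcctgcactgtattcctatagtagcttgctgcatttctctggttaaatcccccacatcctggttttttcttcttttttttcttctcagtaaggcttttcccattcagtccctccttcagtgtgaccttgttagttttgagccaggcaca
Col11a2: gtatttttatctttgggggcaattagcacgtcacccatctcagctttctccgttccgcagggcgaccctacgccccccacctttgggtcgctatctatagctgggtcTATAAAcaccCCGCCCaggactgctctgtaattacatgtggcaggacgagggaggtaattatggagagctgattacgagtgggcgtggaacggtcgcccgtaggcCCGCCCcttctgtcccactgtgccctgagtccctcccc

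Type IV collagen is the network of basement membranes, assembled in most tissues from *Col4a1* and *Col4a2* chains. *Col4a1* was at 204.3, 290.3 and 320.2 CPM in Dlx5CE-E12.5 cells and at 940.8 and 962.6 CPM in Fgfr3CE-E12.5 cells. The Fgfr3CE-E12.5 libraries lay close together and above all others, with a log2 fold change of 1.81 (SE 0.21, edgeR adjusted p = 0.000637). *Col4a2* was at 306.8, 338.6 and 348.9 CPM against 295.8 and 408.3 CPM, and the lineages overlapped (log2 fold change 0.09, SE 0.18, edgeR adjusted p = 0.712). *Col4a1* to *Col4a2* per kilobase was therefore 0.590, 0.760 and 0.814 against 2.82 and 2.09. The genes lie head to head on chromosome 8, with annotated starts 22 bases apart counting both, and the transcripts overlap by those bases. The 30 bases around the starts, at chr8:11312801-11312830 of GRCm38.p6 on the plus strand, are shown with the stretch from start to start in capitals.
Col4a1 and Col4a2: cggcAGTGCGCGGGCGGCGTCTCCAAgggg

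Among the other basement membrane collagens, *Col18a1*, whose end is released as endostatin, was at 13.4, 13.8 and 11.4 CPM against 61.1 and 59.4 CPM. The libraries within each lineage were close, and the log2 fold change was 2.23 (SE 0.16, edgeR adjusted p = 0.000101). The minor type IV chains *Col4a3*, *Col4a4* and *Col4a5*, *Col7a1* of anchoring fibrils and *Col15a1* stayed at or under 56 counts in every library and failed both filters. Endothelial cells are a usual source of type IV and type XVIII collagen; the 10 endothelial markers summed to 51.1, 57.4 and 35.2 CPM against 44.5 and 61.1 CPM, with *Pecam1* the most abundant and none at 0 in all libraries of a lineage. The 10 mural and smooth muscle markers summed to 497, 372 and 364 CPM against 461 and 344 CPM, with *Notch3* the most abundant. Of 8 mural markers tested, 3 were called higher in Fgfr3CE-E12.5 cells, beside 16.4% of all genes tested, and 1 higher in Dlx5CE-E12.5 cells, beside 13.1%. Of these, *Cspg4*, *Tagln* and *Des* passed the filter only through the lineage where they were higher. Neither sum describes every gene of its list. *Pecam1*, the endothelial marker that passed the filter, was at 13.3, 8.08 and 6.61 CPM against 15.9 and 19.9 CPM and was not called (log2 fold change 0.94, edgeR adjusted p = 0.0504). *Cdh5*, *Kdr* and *Flt4*, which failed the filter, lay lower in both Fgfr3CE-E12.5 libraries than in any other, *Cdh5* at 7.83, 4.06 and 1.72 CPM against 1.13 and 1.16 CPM. *Tie1* and *Esam*, which also failed it, lay higher in both Fgfr3CE-E12.5 libraries than in any other. *Tie1* was at 4.88, 4.51 and 0.377 CPM against 5.61 and 9.30 CPM, and *Esam* at 2.68, 4.11 and 4.27 CPM against 4.57 and 5.23 CPM. For the rest of the list the lineages overlapped. The part of these cells in the result was not tested.

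In the FACIT class, which here leaves out the type IX genes, the largest difference was in *Col14a1*, a collagen on the surface of fibrils in tendon and skin. It was at 17.8, 18.3 and 17.9 CPM in Dlx5CE-E12.5 cells and at 0.616 and 0.515 CPM in Fgfr3CE-E12.5 cells. Libraries within each lineage were nearly equal, and the log2 fold change was -4.98 (SE 0.28, edgeR adjusted p = 4.4e-05), though *Col14a1* passed either filter only through Dlx5CE-E12.5 libraries and so had to differ. *Col12a1*, which responds to load in bone and tendon, was the most abundant gene of this class per kilobase. It was at 345.2, 377.1 and 333.3 CPM against 295.2 and 272.2 CPM and did not pass (log2 fold change -0.31, SE 0.14, edgeR adjusted p = 0.106). *Col16a1* did not pass either, except without Fgfr3CE-E12.5 replicate 2, when its adjusted p was under 0.05 (0.52). *Col22a1*, a collagen of tissue junctions, had 51, 7 and 34 counts against 499 and 706 counts and was called under the lower filter at 3.06 (SE 0.59, edgeR adjusted p = 0.00599). *Col20a1* had between 45 and 103 counts and did not pass under the lower filter, and *Col19a1* had 13 counts in Dlx5CE-E12.5 replicate 2 and 0 elsewhere.

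Type VI collagen forms beaded filaments around cells from *Col6a1*, *Col6a2* and either *Col6a3* or 1 of its relatives *Col6a4*, *Col6a5* and *Col6a6*. *Col6a1* was at 2591, 2728 and 2886 CPM in Dlx5CE-E12.5 cells and at 1236 and 1229 CPM in Fgfr3CE-E12.5 cells. The lineages did not overlap, and the difference was -1.15 on the log2 scale (SE 0.16, edgeR adjusted p = 0.00143). With library size alone as the scaling, which moved the median of all genes to 0.19, it was -0.97 and not called. *Col6a2* was at 1010, 984.7 and 1023 CPM against 963.6 and 895.4 CPM and did not pass (log2 fold change -0.11, SE 0.14, edgeR adjusted p = 0.546). *Col6a1* to *Col6a2* per kilobase was 4.88, 5.27 and 5.36 against 2.44 and 2.61. *Col6a3* was slightly higher in Fgfr3CE-E12.5 cells, at 95.2, 99.0 and 99.7 CPM against 137.6 and 125.9 CPM, under the threshold (log2 fold change 0.43, SE 0.12, edgeR adjusted p = 0.0243). With Dlx5CE-E12.5 replicate 1, 2 or 3 left out, its adjusted p was not under 0.05 (0.41, 0.43 and 0.43). *Col6a3* to *Col6a1* was 0.0135, 0.0133 and 0.0126 against 0.0408 and 0.0375.

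Among the type VI genes that passed the filter of 10 CPM, *Col6a5* had the largest fold change. It was at 128.8, 223.8 and 250.7 CPM in Dlx5CE-E12.5 cells and at 7.46 and 6.01 CPM in Fgfr3CE-E12.5 cells. Every Dlx5CE-E12.5 library was far above both others, with a log2 fold change of -4.90 (SE 0.35, edgeR adjusted p = 0.000104). *Col6a5* passed that filter only through Dlx5CE-E12.5 libraries and so had to differ. Its neighbour *Col6a6* had 76, 93 and 117 counts against 1 and 0 counts, a 464-fold ratio with an exact 95% counting interval from 82.6 to 18400. The ratio rests on 1 count in Fgfr3CE-E12.5 replicate 2, without which it has no finite value. *Col6a6* passed the lower filter only through Dlx5CE-E12.5 libraries, so its call there was fixed by the filter. *Col6a4* had 7 to 23 counts in every library and failed both filters. Its level was 0.687, 1.14 and 0.837 CPM against 0.120 and 0.332 CPM, so it too lay lower in both Fgfr3CE-E12.5 libraries. Of the summed counts per kilobase of *Col6a3* and its 3 relatives, *Col6a5* held 62.2%, 72.7% and 74.8% in Dlx5CE-E12.5 cells and 6.43% and 5.70% in Fgfr3CE-E12.5 cells. *Col6a3* held the rest but for small parts, at 36.2%, 25.3% and 23.4% against 93.4% and 94.0%. Between 3.42% and 3.70% of the 50-base windows of *Col6a5* and *Col6a6* occur in transcripts of another gene.

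**Figure D5:**
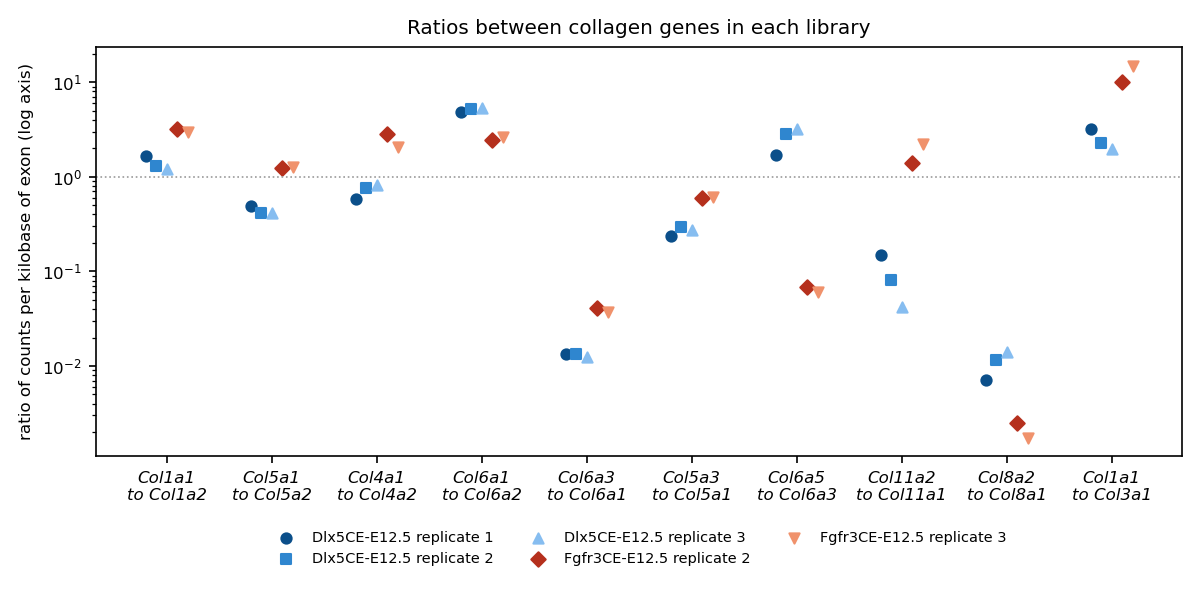
Ratio of counts per kilobase of exon between pairs of collagen genes in each library, on a log axis. Of the 10 pairs, 5 were chosen after their values were seen, so their separation is no test; the ratio of *Col6a5* to *Col6a3*, one of these, goes from between 1.72 and 3.20 in Dlx5CE-E12.5 cells to 0.0689 and 0.0607 in Fgfr3CE-E12.5 cells.

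*Col6a6*, *Col6a5* and *Col6a4* lie in a row on chromosome 9 and the minus strand, with 27.9 and 28.8 kb between them. Because *Col6a5* and *Col6a6* were low together in Fgfr3CE-E12.5 cells, upstream bases are shown, *Col6a5* at chr9:105960644-105960893 and *Col6a6* at chr9:105828161-105828335, both read along the minus strand. The *Col6a5* stretch ends at its RefSeq start, and the *Col6a6* stretch ends 75 bases before its RefSeq start, since bases that reach into an annotated exon are not shown. GGGCGG, in capitals, occurs once in the first and on both strands of the second. It was found in 21 of 37 collagen promoters beside 32.7% of all. Among the same 37, TATAAA was found in 5 beside 12.4%, and CCAAT in 13 beside 33.8%. ACAATG was found in 1 beside 10.7%, and ACAAAG in 4 beside 16.5%.
Col6a5: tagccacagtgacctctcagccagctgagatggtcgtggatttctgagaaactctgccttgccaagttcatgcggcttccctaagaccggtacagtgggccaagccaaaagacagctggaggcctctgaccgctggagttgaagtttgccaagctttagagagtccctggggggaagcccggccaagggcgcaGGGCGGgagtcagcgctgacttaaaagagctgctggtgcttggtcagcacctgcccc
Col6a6: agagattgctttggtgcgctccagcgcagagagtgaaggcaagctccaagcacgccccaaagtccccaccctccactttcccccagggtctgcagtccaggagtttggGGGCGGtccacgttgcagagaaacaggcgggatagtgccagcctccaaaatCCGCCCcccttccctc

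*Col8a1*, a short-chain collagen that forms hexagonal networks, was the second collagen per kilobase in Fgfr3CE-E12.5 cells. It was at 1243, 995.5 and 830.8 CPM in Dlx5CE-E12.5 cells and at 2644 and 3929 CPM in Fgfr3CE-E12.5 cells. The lineages did not overlap, and the log2 fold change was 1.68 (SE 0.25, edgeR adjusted p = 0.00171). Its partner *Col8a2* was at 3.81 to 6.61 CPM in all libraries and did not pass under the lower filter, so *Col8a1* exceeded it throughout. *Col26a1*, a small collagen first described in gonads, was at 5.63, 20.6 and 27.1 CPM against 2.40 and 1.81 CPM. Its Dlx5CE-E12.5 libraries varied widely, and the log2 fold change of -3.08 (SE 0.67, edgeR adjusted p = 0.00865) was not called without Fgfr3CE-E12.5 replicate 3 (-2.83). It reached 10 CPM only in Dlx5CE-E12.5 replicates 2 and 3 and failed the filter with either left out.

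The collagens that span the cell membrane were scarce. *Col13a1*, found at cell adhesions, had 52, 55 and 33 counts against 228 and 1227 counts, so that most of the difference lay in Fgfr3CE-E12.5 replicate 3. It was called under the lower filter at 2.61 (SE 0.67, edgeR adjusted p = 0.0182), and at 1.00 without that replicate it was not. Leaving out Dlx5CE-E12.5 replicate 1 (2.55) or 3 (2.41) also ended the call, and without Fgfr3CE-E12.5 replicate 2 it was 3.38. *Col25a1* passed the filter at 6.82 to 13.3 CPM and had no call (log2 fold change 0.44, SE 0.29, edgeR adjusted p = 0.251), and *Col23a1* had none under the lower filter. *Col17a1* and *Col28a1*, the latter not a membrane collagen, had at most 29 counts in any library.

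Of 51 genes that modify, export, cleave, crosslink or bind collagen, 40 passed the filter; 6 were called higher in Fgfr3CE-E12.5 cells (15.0%, beside 16.4% of all genes tested) and 8 higher in Dlx5CE-E12.5 cells (20%, beside 13.1%). Both counts were lower without Fgfr3CE-E12.5 replicate 3, as were those over all genes tested. Of the crosslinking enzymes, 4 of 5 tested were called higher in Dlx5CE-E12.5 cells, beside 13.1% of all genes tested, and the median log2 fold change was -1.21, beside 0.01. *Loxl4*, which failed the filter, lay the other way, at 4.50, 1.09 and 1.42 CPM against 13.5 and 9.30 CPM. *Loxl1*, a lysyl oxidase-like enzyme, was at 2072, 2054 and 2136 CPM against 255.3 and 323.4 CPM (log2 fold change -2.85, SE 0.19, edgeR adjusted p = 7.6e-05). *Loxl2* was at 183.0, 175.0 and 163.5 CPM against 33.2 and 21.6 CPM (log2 fold change -2.67, SE 0.22, edgeR adjusted p = 0.000159). *Lox* itself was at 983.7, 1377 and 1225 CPM against 513.8 and 517.4 CPM (log2 fold change -1.21, SE 0.19, edgeR adjusted p = 0.00231). For *Loxl1*, *Loxl2* and *Lox*, every Dlx5CE-E12.5 library lay above both others. *Pxdn*, a peroxidase that crosslinks type IV collagen, was called at -1.19 (SE 0.24, edgeR adjusted p = 0.00682), but not without Fgfr3CE-E12.5 replicate 3 (-0.80) or with a length trend removed (-0.95).

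Median log2 fold changes were 0.04 for proline and lysine modification, 0.11 for chaperones and export, -0.03 for propeptide cleavage and -0.41 for receptors. Of all genes tested, 16.4% were called higher in Fgfr3CE-E12.5 cells and 13.1% higher in Dlx5CE-E12.5 cells. Of 16 tested genes for proline and lysine modification, *P3h3*, a prolyl 3-hydroxylase, was called at 1.76 (SE 0.13, edgeR adjusted p = 0.000127) and *P4ha3*, a prolyl 4-hydroxylase subunit, at 2.05 (SE 0.57, edgeR adjusted p = 0.0225), the latter not without Dlx5CE-E12.5 replicate 3 (1.92) and at 2.82 without replicate 1. *P4ha3* passed the filter only through Fgfr3CE-E12.5 libraries, so it had to differ, and it failed the filter with either of them left out. *Mia2* and *Mia3* encode partner proteins of the exit sites through which bulky procollagen leaves the endoplasmic reticulum, and they were called in opposite directions. *Mia2* was at 29.0, 26.1 and 29.2 CPM against 108.9 and 126.8 CPM (log2 fold change 2.07, SE 0.14, edgeR adjusted p = 8.5e-05), and *Mia3* at 132.6, 168.2 and 158.1 CPM against 81.8 and 70.3 CPM (log2 fold change -1.01, SE 0.16, edgeR adjusted p = 0.00236). Libraries of the lineages did not overlap for either gene, but *Mia3* was near the threshold and was not called in 8 of 19 alternatives, among them without Dlx5CE-E12.5 replicate 2 (-0.94) or 3 (-0.99) and without Fgfr3CE-E12.5 replicate 3 (-0.84). *Creb3l1*, a transcription factor of secretory cells in bone, was called at 1.52 (SE 0.28, edgeR adjusted p = 0.00447), and *Bmp1*, which cuts the C-terminal propeptide, at 1.46 (SE 0.19, edgeR adjusted p = 0.000936). *Adamts14*, which cuts the N-terminal propeptide, was lower in Fgfr3CE-E12.5 cells at -1.42 (SE 0.34, edgeR adjusted p = 0.013) but not called without Fgfr3CE-E12.5 replicate 2, at -0.94.

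Among 6 tested receptors, *Ddr2*, a tyrosine kinase activated by fibrillar collagen, was called at -1.12 (SE 0.23, edgeR adjusted p = 0.00643) and the integrin gene *Itga1* at -1.08 (SE 0.26, edgeR adjusted p = 0.013). Calls higher in Dlx5CE-E12.5 cells were made for 13.1% of all genes tested, and calls higher in Fgfr3CE-E12.5 cells for 16.4%. *Mrc2*, an endocytic receptor for collagen, was called at 1.28 (SE 0.29, edgeR adjusted p = 0.0101). Without Fgfr3CE-E12.5 replicate 3, none of these 3 calls held, with values of -0.75, -0.71 and 0.93, and *Itga1* was also not called without Dlx5CE-E12.5 replicate 2 (-1.0). With a length trend removed, *Ddr2* was at -0.91 and *Itga1* at -0.32, and with library size alone at -0.94 and -0.90, none of them called. *Itga1* was also not called with a GC trend removed (-0.99) or by limma on the depth-normalized values (-0.96).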

How the data were processed

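The authors aligned reads to mm10 and deposited raw counts per gene; the submitters' notes name TopHat2 2.0.13, Bowtie2 2.2.1, HTSeq and DESeq2 among the tools, and the strand setting is not given in the sources used here. A depth-normalized signal was deposited too, in which the authors had divided the counts of each library by its size factor; an alternative used it, and their rlog values were not used. Symbols, types and exon lengths came from GENCODE M21, in which 29965 identifiers were found and 76 were not. Promoter sequences came from RefSeq (GRCm38.p6).

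Protein-coding genes and 5 reporter sequences at 10 CPM or more in 2 or more of the 5 libraries were fitted with edgeR 4.0.16 (R 4.3.3; TMM, quasi-likelihood test, lineage as the only term). The SE is the absolute log2 fold change over the square root of F. With a library left out of Fgfr3CE-E12.5, the lone library is assumed to vary like the Dlx5CE-E12.5 group. Chain ratios and class shares used raw counts, with no test. Alternatives covered scaling, test (DESeq2 1.42.0, limma 3.58.1), filters, thresholds, trends on GC content and length, the replicate number and each library left out; those under the lower filter were added after seeing the data. Full statistics were given for collagen genes past both thresholds under either filter and for the highest member per kilobase in each class, and for called synthesis and receptor genes; further members and ratios were chosen after their values were seen. Members and lists were chosen with earlier results of these data known. No 2 libraries agreed within sampling noise. At these depths 3 counts correspond to 0.0498 to 0.149 CPM; such floors and intervals cover counting error only, since reads carried no molecular identifiers. Figures were drawn with matplotlib 3.10.9.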

Additional observations from a re-analysis of the deposited data

How the results depend on the processing

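Of the log2 fold changes of named genes under the alternatives, 754 kept their sign and whether the gene was called, 45 lost the call, 5 gained it and 17 changed sign. Among the first, 20 in genes not called moved across the adjusted p threshold alone. None of the sign changes was in a called gene. They were *Col4a2* (-0.25) and *Col16a1* (-0.31) with a GC trend removed, *Col1a2* (0.46), *Col12a1* (0.33) and *Col6a2* (0.03) with a length trend removed, *Col1a2* (0.11), *Col6a2* (0.07) and, under the lower filter, *Col23a1* (0.12) with library size alone, *Col6a2* (0.03) with limma on the depth-normalized values, and *Col11a1* (-0.06) with the replicate block. Leaving out 1 library moved *Col11a1* between -0.41 and 0.50, *Col16a1* between -0.26 and 0.52, *Col1a2* between -0.64 and 0.45, *Col4a2* between -0.10 and 0.38 and *Col23a1* between -0.44 and 0.25. The cause was not tested.

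Collagen genes called higher in Fgfr3CE-E12.5 cells numbered 14 with no filter, 13 with either looser filter, and between 4 and 9 with a library left out; fewer cartilage genes passed the filter without an Fgfr3CE-E12.5 library. Those higher in Dlx5CE-E12.5 cells numbered 3 when a change above 2-fold was tested, which *Col1a1*, *Col3a1*, *Col6a1*, *P4ha3*, *Mia3*, *Creb3l1*, *Adamts14*, *Lox*, *Pxdn*, *Itga1*, *Ddr2* and *Mrc2* did not pass, and 4 to 5 with a library left out. The median was 0.43 with 10 CPM or more required in only 1 library, 0.51 with a length trend removed, and -0.10 to 0.38 with a library left out. Synthesis and receptor genes called higher in Fgfr3CE-E12.5 cells numbered 11 with the lower or no filter, 3 for a change above 2-fold and 10 with no fold threshold, where those higher in Dlx5CE-E12.5 cells numbered 15; the latter numbered 2 for a change above 2-fold, 5 with library size alone and 4 to 9 with a library left out. The 19 collagen genes called under the lower filter became fewer with any library left out. Over all genes tested, calls higher in Fgfr3CE-E12.5 and Dlx5CE-E12.5 cells also moved. They were 2273 and 1711 of 17092 with no filter, and 1011 and 659 of 10088 for a change above 2-fold. With library size alone they were 1936 and 1045 of 10088. Without an Fgfr3CE-E12.5 library, calls higher in Fgfr3CE-E12.5 cells fell over all genes too.

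The collagen share in Dlx5CE-E12.5 cells was 1.14% of the counts of all features. Of protein-coding counts it was 0.945% there without *Col6a1*, and 1.38% in Fgfr3CE-E12.5 cells without *Col1a1*. With the longest coding transcript as the length, ratios in Dlx5CE-E12.5 and Fgfr3CE-E12.5 cells were 0.664 and 1.47 for *Col1a1* to *Col1a2*, 0.308 and 0.876 for *Col5a1* to *Col5a2*, 3.09 and 1.51 for *Col6a1* to *Col6a2*, and 0.0145 and 0.0434 for *Col6a3* to *Col6a1*.

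Same-numbered libraries are different pools of mice, and their deviations from the group means correlated across genes, which are not independent, at 0.122 and -0.047. The deviations of 2 Fgfr3CE-E12.5 libraries from their mean mirror each other, so each correlation returns with the other sign. Dlx5CE-E12.5 replicate 1 and Fgfr3CE-E12.5 replicate 3, numbered differently, correlated at 0.119. The values therefore cannot decide whether libraries are paired. With the replicate block, 8 collagen genes were called higher in Fgfr3CE-E12.5 cells and 5 in Dlx5CE-E12.5 cells, and 17 under the lower filter. *Col1a1* (1.15) and, under the lower filter, *Col13a1* (2.15) were not called. The adjusted p of *Col27a1* (-0.68) and *Col6a3* (0.41), under 0.05 without the block, was not under 0.05 with it. Library size alone and limma on the depth-normalized values moved the median of all genes to 0.19 and 0.15. Precision was limited by the number of Fgfr3CE-E12.5 libraries, which is 2, and for 9 collagen genes by counts under 100 in every library.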
